A study of Mus musculus with 16 samples.

Results

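The 9 genes described here encode components of 4 systems that set arterial tone: the angiotensin receptor Agtr1a and the converting enzyme Ace, the endothelin receptors Ednra and Ednrb with their ligand Edn1, the α1-adrenergic receptors Adra1b and Adra1d, and the natriuretic peptide receptors Npr1 and Npr3. They were chosen by gene symbol, and each symbol matched 1 of the 54532 gene rows. RNA from the entire aorta of 16 mice was sequenced, 1 library per mouse and 4 mice per group. All mice were male C57BL/6J, operated on at 12 weeks of age. Sham mice had surgery without loss of kidney tissue and then ate the high-phosphate, low-protein (HPi-Lp) diet with 2% phosphorus and 2.5% protein. The other 3 groups underwent 5/6 nephrectomy (5/6 Nx), a 2-step removal of most kidney mass that models CKD, and after 2 weeks of recovery received the same HPi-Lp diet (5/6 Nx-HPi-Lp), a diet with 2% phosphorus and 18% protein (5/6 Nx-HPi-Hp), or a diet with 0.3% phosphorus and 2.5% protein (5/6 Nx-LPi-Lp). Diets lasted 4 weeks by the study's methods and 30 days by the labels. The study asked which aortic transcripts accompany medial calcification. The 5/6 Nx-HPi-Lp mice differ from Sham in kidney mass, from 5/6 Nx-HPi-Hp in dietary protein and from 5/6 Nx-LPi-Lp in dietary phosphorus.

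Vascular smooth muscle contracts when angiotensin II, endothelin-1 or noradrenaline bind receptors coupled to Gq-type G proteins, which raise intracellular calcium and activate myosin light chain kinase. Natriuretic peptides oppose this through Npr1, a receptor guanylate cyclase that makes cyclic GMP, while Npr3 mainly clears the peptides. In the artery wall Edn1 and Ace are typical endothelial products, Ednra and Adra1d typical smooth muscle receptors, and Ednrb is found on endothelial and other cells.

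Library totals ranged from 13659525 to 57276915 counts, and all 9 genes passed the filter on low counts in every comparison. All 8 smooth muscle markers were detected in every library, which does not by itself establish the tissue. Their summed level was 21095 to 25105 CPM (counts scaled to a common library size) in Sham, 2294 to 5206 in 5/6 Nx-HPi-Lp, 6953 to 22307 in 5/6 Nx-HPi-Hp and 7836 to 17891 in 5/6 Nx-LPi-Lp. Mitochondrially encoded genes took 4.18 to 6.34% of counts in Sham and 9.50 to 29.0% in the 12 libraries after 5/6 Nx. Several libraries stood apart. Sympathetic neuron markers summed to 1427 and 1066 CPM in replicates 1 and 4 of 5/6 Nx-HPi-Lp, against 4.80 to 249 CPM in the other 14 libraries. Fibroblast and macrophage markers reached 12748 and 2304 CPM in replicate 2 of 5/6 Nx-HPi-Lp, the highest of the 16 libraries, and heart muscle markers reached 6589 CPM in replicate 2 of 5/6 Nx-LPi-Lp. Because the tissue was sequenced in bulk, fewer cells of a type and less RNA per cell cannot be told apart.

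On the FPKM scale (fragments per kilobase of transcript, scaled for depth, which makes genes of different length comparable), the 9 genes spanned a wide range. Npr1 and Ace were the most abundant, with means over the 16 libraries of 67.2 and 63.8 FPKM and overlapping ranges. Adra1d followed at 20.6 FPKM and Edn1 at 11.1 FPKM. The remaining 5 genes had low means and overlapping ranges, namely Ednrb at 4.20, Ednra at 2.87, Npr3 at 2.30, Agtr1a at 1.93 and Adra1b at 1.43 FPKM. The genes also differed in how far they moved between libraries. From the lowest to the highest library Ednrb spanned 19.98-fold, Adra1d 17.1-fold and Agtr1a 16.1-fold, whereas Ace spanned 1.81-fold. Agtr1a and Adra1b had the thinnest counts, 29 to 311 and 38 to 187 per library.

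**Figure D1:**
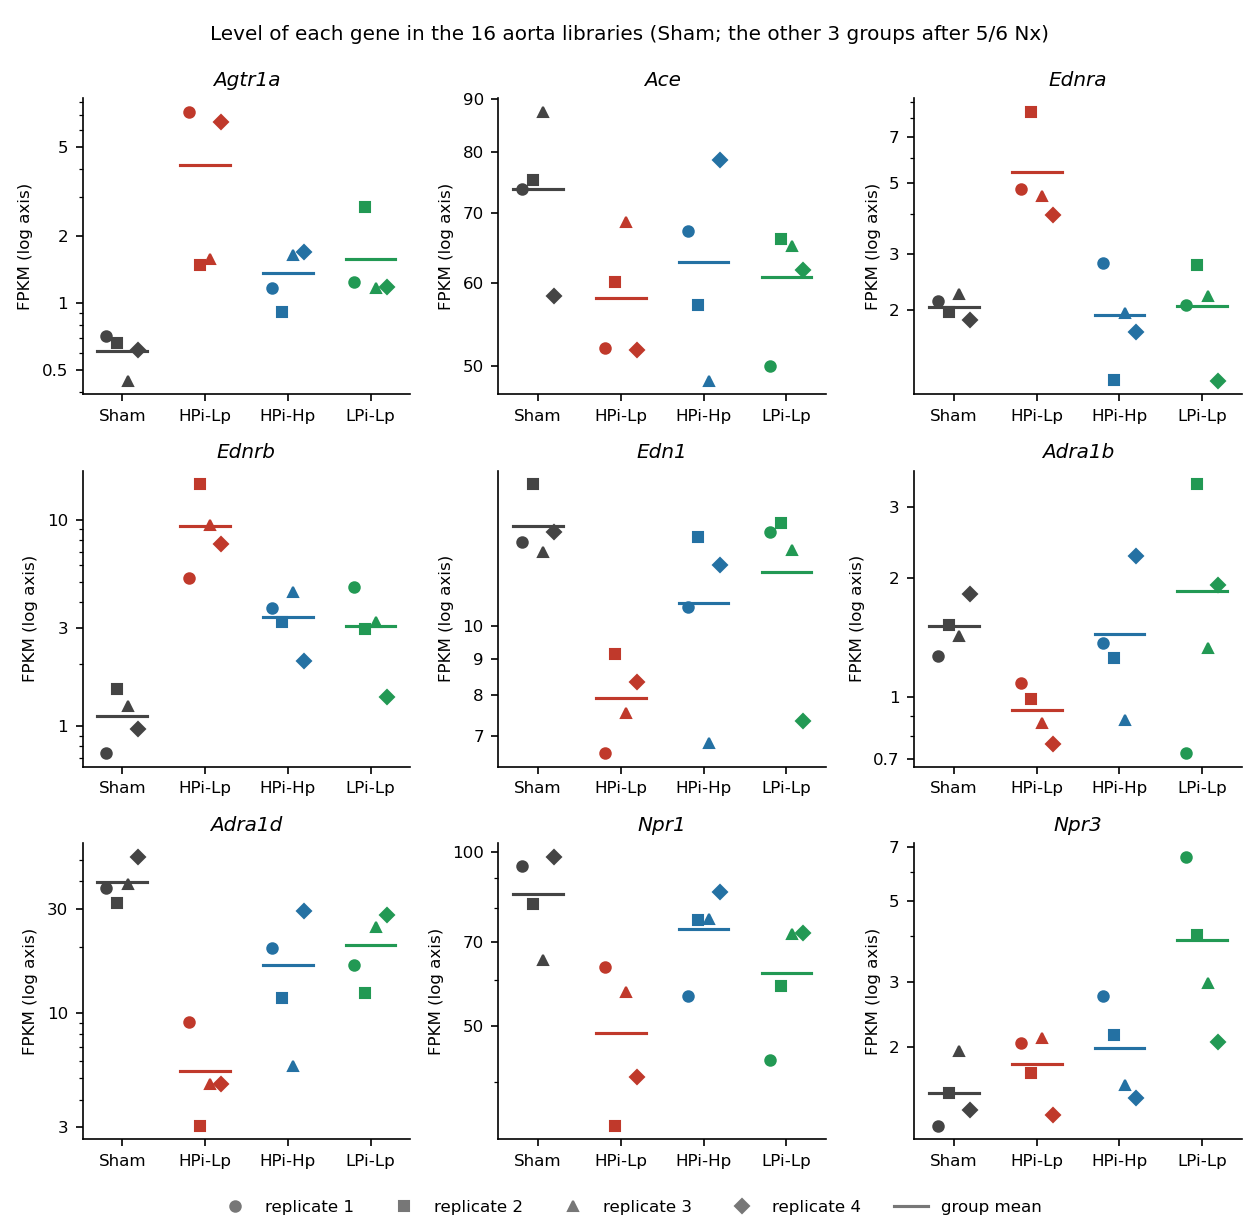
FPKM (log axis) of each of the 9 genes in the 16 libraries, by group, with 1 symbol per replicate and a bar at the group mean. Ednra and Ednrb are highest in the 4 5/6 Nx-HPi-Lp libraries and Adra1d lies between 3.03 and 9.06 FPKM there, while the 2 high Agtr1a points of that group are replicates 1 and 4.

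A differentially expressed gene (DEG) changed at least 2-fold, with an adjusted p no higher than 0.05 in edgeR's quasi-likelihood test over all genes. In 5/6 Nx-HPi-Lp against Sham, 4 of the 9 genes were DEGs. Agtr1a, Ednra and Ednrb were higher and Adra1d was lower. Over all 16513 genes tested, 22.2% were DEGs, 15% higher and 7.18% lower. Edn1, Adra1b and Npr1 were also significantly lower, by less than 2-fold, so that 7 of the 9 genes passed on adjusted p alone, as did 42.9% of all genes (22.7% higher, 20.2% lower). Against 5/6 Nx-HPi-Hp, 2 genes were DEGs (8.12% of all genes, 5.01% higher and 3.11% lower), Ednra and Ednrb, both higher. Against 5/6 Nx-LPi-Lp, 4 genes were DEGs (11.9% of all genes, 7.9% higher and 3.98% lower), with Ednra and Ednrb higher and Adra1d and Npr3 lower. The median log2 fold change of the 9 genes was -0.37, -0.15 and -0.35 in these comparisons, beside -0.0027, 0.0098 and -0.016 over all genes.

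**Figure D2:**
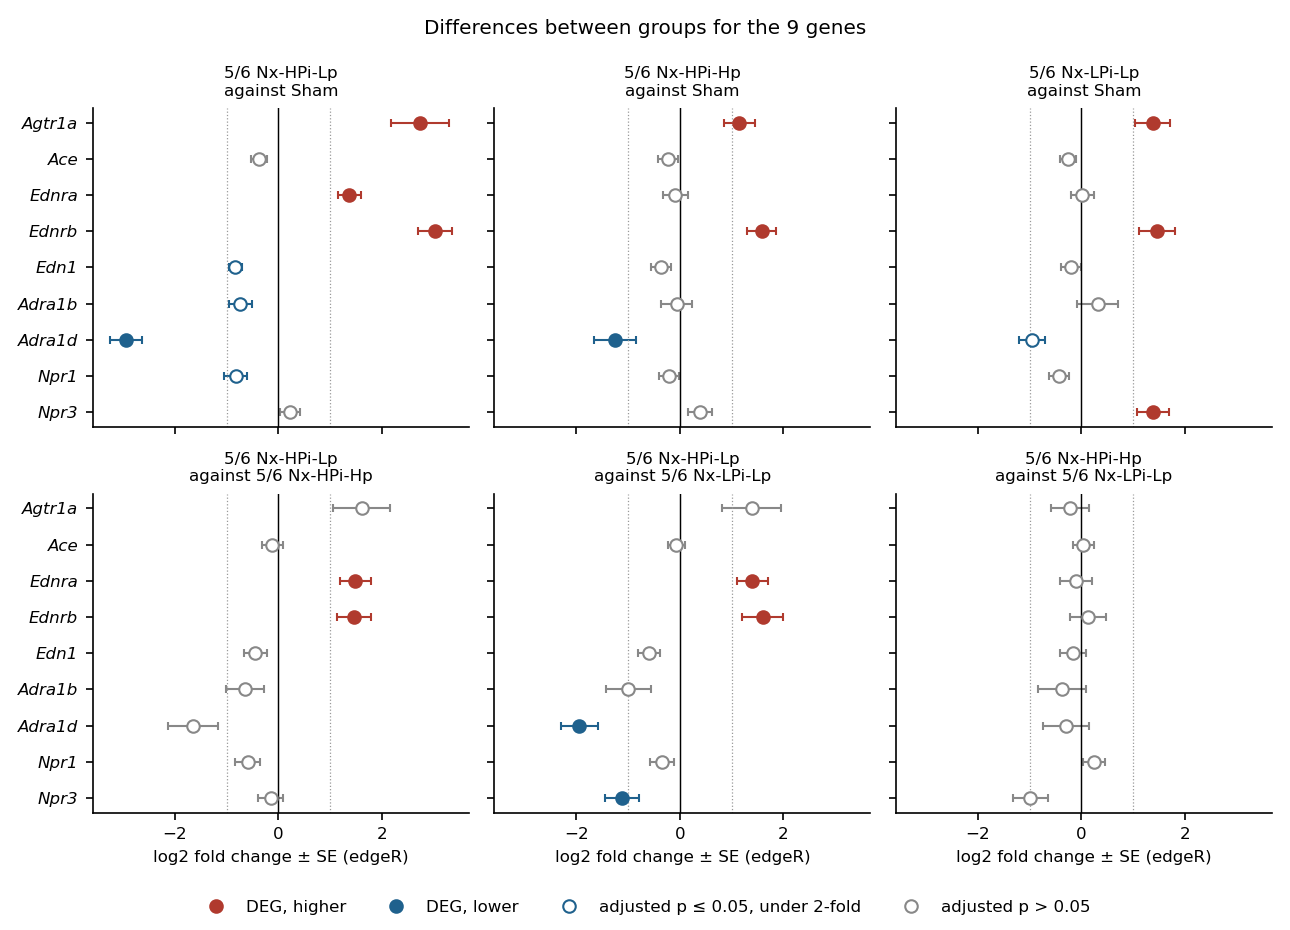
Log2 fold change ± SE of the 9 genes in the 6 comparisons (edgeR). Filled points are DEGs, coloured rings have an adjusted p of at most 0.05 under 2-fold, grey rings did not pass, and dotted lines mark 2-fold. Ednra and Ednrb are filled and to the right in all 3 panels with 5/6 Nx-HPi-Lp, and the panel of 5/6 Nx-HPi-Hp against 5/6 Nx-LPi-Lp has no coloured point.

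The endothelin receptors were both higher in 5/6 Nx-HPi-Lp than in each of the other 3 groups, while their ligand Edn1 was lower than in Sham. Ednrb (chr14:103814625-103844402, minus strand, mm10) encodes the type B receptor, which binds all endothelins and also clears endothelin-1. It was listed at 0.741, 1.51, 1.25 and 0.969 FPKM in Sham replicates 1 to 4 and at 5.24, 14.8, 9.41 and 7.59 FPKM in 5/6 Nx-HPi-Lp. Its levels were 3.73, 3.18, 4.48 and 2.07 FPKM in 5/6 Nx-HPi-Hp and 4.72, 2.94, 3.21 and 1.39 FPKM in 5/6 Nx-LPi-Lp. Every 5/6 Nx-HPi-Lp library lay above every library of the other groups. Ednrb was 8.15-fold higher than in Sham (log2 fold change 3.03 ± 0.33 SE, adjusted p = 0.000117). It was 2.76-fold higher than in 5/6 Nx-HPi-Hp (1.47 ± 0.32, adjusted p = 0.0200) and 3.05-fold higher than in 5/6 Nx-LPi-Lp (1.61 ± 0.40, adjusted p = 0.0219).

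Ednra (chr8:77663031-77724464, minus strand) encodes the type A receptor, the main contractile endothelin receptor of smooth muscle. Its levels were 2.13, 1.97, 2.25 and 1.87 FPKM in Sham and 4.81, 8.38, 4.55 and 3.99 FPKM in 5/6 Nx-HPi-Lp. They were 2.82, 1.21, 1.97 and 1.72 FPKM in 5/6 Nx-HPi-Hp and 2.08, 2.77, 2.22 and 1.20 FPKM in 5/6 Nx-LPi-Lp. The 4 5/6 Nx-HPi-Lp libraries were again above all 12 others, and the ranges of those 12 overlapped between groups. Ednra was 2.59-fold higher than in Sham (1.37 ± 0.22, adjusted p = 0.000888), 2.81-fold higher than in 5/6 Nx-HPi-Hp (1.49 ± 0.30, adjusted p = 0.0149) and 2.64-fold higher than in 5/6 Nx-LPi-Lp (1.402 ± 0.30, adjusted p = 0.0138). Replicate 2 held the highest level of both receptors and also the highest fibroblast and macrophage sums. Without it, Ednra was higher by 1.10, 1.10 and 1.21 and Ednrb by 2.73, 1.27 and 1.15 on the log2 scale against Sham, 5/6 Nx-LPi-Lp and 5/6 Nx-HPi-Hp, with adjusted p between 0.000112 and 0.0474. The calls against the diet groups depended on single libraries for Ednrb, with adjusted p = 0.0650 without 5/6 Nx-HPi-Hp replicate 2 and 0.0542 without 5/6 Nx-LPi-Lp replicate 3.

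Edn1 (chr13:42301476-42307990, plus strand) encodes the precursor of endothelin-1. It was listed at 13.2, 15.9, 12.8 and 13.6 FPKM in Sham and at 6.62, 9.16, 7.55 and 8.36 FPKM in 5/6 Nx-HPi-Lp. In 5/6 Nx-HPi-Hp it was at 10.7, 13.4, 6.85 and 12.2 FPKM and in 5/6 Nx-LPi-Lp at 13.6, 14.0, 12.8 and 7.35 FPKM. Sham and 5/6 Nx-HPi-Lp did not overlap, and 1 library of each other diet group fell within the 5/6 Nx-HPi-Lp range. Edn1 was 1.78-fold lower than in Sham (-0.83 ± 0.13, adjusted p = 0.000750). Differences from 5/6 Nx-HPi-Hp (-0.45 ± 0.22, adjusted p = 0.202) and 5/6 Nx-LPi-Lp (-0.59 ± 0.21, adjusted p = 0.0781) did not pass, the second passing without 5/6 Nx-LPi-Lp replicate 4 (-0.74, adjusted p = 0.0179). The summed level of 8 endothelial markers was 741 to 1087 CPM in Sham and 902 to 1141 CPM in 5/6 Nx-HPi-Lp, with 4 of the 8 higher and 1 lower at an adjusted p of at most 0.05. Of the endothelin-converting enzymes, which release the active peptide, Ece1 was the 1 of 3 tested genes of this list that passed and was higher against Sham (38.1 ± 9.35 against 26.2 ± 2.81 FPKM, SD, n = 4; log2 fold change 0.51 ± 0.17 SE, adjusted p = 0.0329).

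Because in 5/6 Nx-HPi-Lp against Sham both receptors were higher and the ligand lower, the bases just upstream of their start sites are shown, from RefSeq's table for GRCm38.p6, the build also called mm10. CpG dinucleotides are in capitals and each sequence runs 5′ to 3′ on the gene's strand. The Ednrb window is chr14:103843702-103843951 (minus strand), which lies inside an intron of the gene's longest annotated transcript and upstream of its shorter ones. The Ednra window is chr8:77724465-77724702 (minus strand) and the Edn1 window chr13:42301226-42301475 (plus strand).
Ednrb: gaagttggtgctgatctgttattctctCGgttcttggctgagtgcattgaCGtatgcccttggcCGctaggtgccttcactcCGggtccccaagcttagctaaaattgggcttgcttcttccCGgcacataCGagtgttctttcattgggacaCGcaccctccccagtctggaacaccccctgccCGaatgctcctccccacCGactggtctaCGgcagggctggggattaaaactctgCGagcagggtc
Ednra: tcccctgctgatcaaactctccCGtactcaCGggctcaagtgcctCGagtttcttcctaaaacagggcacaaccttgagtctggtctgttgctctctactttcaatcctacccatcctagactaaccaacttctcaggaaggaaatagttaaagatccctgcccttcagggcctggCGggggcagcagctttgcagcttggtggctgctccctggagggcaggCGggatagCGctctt
Edn1: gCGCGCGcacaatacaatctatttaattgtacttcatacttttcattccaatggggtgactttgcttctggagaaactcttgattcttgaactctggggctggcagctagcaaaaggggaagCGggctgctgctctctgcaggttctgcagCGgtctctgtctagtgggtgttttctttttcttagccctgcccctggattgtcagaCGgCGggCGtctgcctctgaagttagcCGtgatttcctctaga
The Ednrb window had 11 CpG and 56.8% GC, the Ednra window 6 and 54.6%, and the Edn1 window 9 and 50.4%, beside medians of 6 CpG and 52.4% GC over 32851 promoter windows. Both strands were searched for TATAAA (in 12.4% of windows), TGANTCA, the AP-1 site (6.75%), GGGCGG, the GC box (32.7%), CACGTG, an E-box (6.02%), and the CArG box, bound by serum response factor in smooth muscle genes (1.47%). These letters were in none of the 3 windows.

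The angiotensin receptor Agtr1a was higher than in Sham after 5/6 Nx, whereas Ace did not pass the test in any of the 6 comparisons, though against Sham this depended on the setting. Agtr1a (chr13:30336441-30382867, plus strand) encodes the type 1a receptor, through which angiotensin II constricts arteries. Its levels were 0.712, 0.660, 0.448 and 0.618 FPKM in Sham and 7.22, 1.48, 1.58 and 6.46 FPKM in 5/6 Nx-HPi-Lp. The other diets gave 1.17, 0.914, 1.65 and 1.70 FPKM in 5/6 Nx-HPi-Hp and 1.24, 2.70, 1.16 and 1.18 FPKM in 5/6 Nx-LPi-Lp. All 12 libraries after 5/6 Nx exceeded the 4 Sham libraries, and within 5/6 Nx-HPi-Lp replicates 1 and 4 were several times the others. Agtr1a was 6.66-fold higher in 5/6 Nx-HPi-Lp than in Sham (2.73 ± 0.56, adjusted p = 0.00345). Differences from 5/6 Nx-HPi-Hp (1.61 ± 0.55, adjusted p = 0.0810) and 5/6 Nx-LPi-Lp (1.39 ± 0.57, adjusted p = 0.111) did not pass, the first passing without 5/6 Nx-HPi-Lp replicate 2 (adjusted p = 0.0480).

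The 2 libraries with high Agtr1a, replicates 1 and 4, were those with high sympathetic neuron markers. They were also the shallower 2 of their group, with 15665005 and 15013203 counts against 57276915 and 46499243 in replicates 2 and 3. With replicates 1 and 4 left out, the difference from Sham was 1.30 (adjusted p = 0.00846). Those from 5/6 Nx-LPi-Lp and 5/6 Nx-HPi-Hp were -0.029 (adjusted p = 0.973) and 0.16 (adjusted p = 0.854). Of 7 neuron markers, 5 were tested against Sham and all 5 were higher, while Th and Dbh, which encode noradrenaline-making enzymes, were at 0 in 1 5/6 Nx-HPi-Lp library. Summed levels were 5.17 to 7.15 CPM in Sham, 25.2 to 1427 in 5/6 Nx-HPi-Lp, 11.1 to 176 in 5/6 Nx-HPi-Hp and 4.80 to 123 in 5/6 Nx-LPi-Lp. The parts of neuronal RNA and of library depth in the Agtr1a levels were not tested. Adrenal gland markers, which could mark attached adrenal tissue, summed to 5.07 to 22.4 CPM, with Cyp11b1 and Cyp11b2 at 0 in all 16 libraries. Agtr1a has a closely similar paralog, Agtr1b, at 4 to 114 counts, and reads shared by the pair make both levels uncertain.

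Ace (chr11:105967945-105989964, plus strand) encodes the enzyme that converts angiotensin I to angiotensin II. It was listed at 73.8, 75.3, 87.4 and 58.3 FPKM in Sham and at 51.9, 60.04, 68.6 and 51.7 FPKM in 5/6 Nx-HPi-Lp. In 5/6 Nx-HPi-Hp it was at 67.2, 57.1, 48.3 and 78.6 FPKM and in 5/6 Nx-LPi-Lp at 49.95, 66.1, 65.1 and 61.7 FPKM. All 4 groups overlapped. The log2 difference between 5/6 Nx-HPi-Lp and Sham was -0.37 ± 0.15 (adjusted p = 0.0641), and those from 5/6 Nx-LPi-Lp and 5/6 Nx-HPi-Hp were -0.06 ± 0.16 (adjusted p = 0.807) and -0.12 ± 0.20 (adjusted p = 0.726). Against Sham, Ace in 5/6 Nx-HPi-Lp passed, under 2-fold, without Sham replicate 4 (-0.49, adjusted p = 0.0266), without 5/6 Nx-HPi-Lp replicate 3 (-0.45, adjusted p = 0.0391), with total-count scaling (-0.51, adjusted p = 0.0150) and with a replicate block (-0.37, adjusted p = 0.04405). With total-count scaling it also passed in 5/6 Nx-LPi-Lp against Sham (-0.50, adjusted p = 0.0357).

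The α1-adrenergic receptors were both lower in 5/6 Nx-HPi-Lp than in Sham, Adra1d by far more than Adra1b. Adra1d (chr2:131545850-131562283, minus strand) encodes the α1D receptor, a contractile noradrenaline receptor of the aorta. Its levels were 37.3, 31.7, 38.9 and 51.8 FPKM in Sham and 9.06, 3.03, 4.72 and 4.71 FPKM in 5/6 Nx-HPi-Lp. They were 19.9, 11.7, 5.71 and 29.2 FPKM in 5/6 Nx-HPi-Hp and 16.5, 12.3, 24.7 and 28.1 FPKM in 5/6 Nx-LPi-Lp. Every library after 5/6 Nx was below the lowest Sham library, and replicate 3 of 5/6 Nx-HPi-Hp reached the 5/6 Nx-HPi-Lp range. Adra1d was 7.69-fold lower than in Sham (-2.94 ± 0.32, adjusted p = 0.000105) and 3.85-fold lower than in 5/6 Nx-LPi-Lp (-1.95 ± 0.36, adjusted p = 0.00777). The difference from 5/6 Nx-HPi-Hp was -1.65 ± 0.49 with adjusted p = 0.0519. It passed without 5/6 Nx-HPi-Lp replicate 1 (adjusted p = 0.0319) and without 5/6 Nx-HPi-Hp replicate 3 (adjusted p = 0.0263). All 8 smooth muscle markers were DEGs and lower against Sham, 6 against 5/6 Nx-HPi-Hp and 7 against 5/6 Nx-LPi-Lp, and their part in the Adra1d levels was not tested.

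Adra1b (chr11:43774606-43901210, minus strand) encodes the α1B receptor. It was listed at 1.27, 1.52, 1.43 and 1.82 FPKM in Sham and at 1.09, 0.990, 0.863 and 0.766 FPKM in 5/6 Nx-HPi-Lp, and these groups did not overlap. In 5/6 Nx-HPi-Hp it was at 1.37, 1.25, 0.876 and 2.26 FPKM and in 5/6 Nx-LPi-Lp at 0.724, 3.43, 1.33 and 1.92 FPKM, both of which overlapped all other groups. Adra1b was 1.66-fold lower in 5/6 Nx-HPi-Lp than in Sham (-0.73 ± 0.23, adjusted p = 0.0274). The adjusted p was 0.170 with all 16 libraries in 1 fit, 0.0614 with no count filter, 0.0829 with a replicate block, and 0.0506 to 0.0813 when Sham replicate 2, 3 or 4 or 5/6 Nx-HPi-Lp replicate 3 or 4 was left out. Differences from 5/6 Nx-HPi-Hp (-0.65 ± 0.36, adjusted p = 0.253) and 5/6 Nx-LPi-Lp (-0.996 ± 0.44, adjusted p = 0.134) did not pass, the second passing without 5/6 Nx-LPi-Lp replicate 1 (-1.29, adjusted p = 0.0471). Its highest library, 5/6 Nx-LPi-Lp replicate 2, was the one with the highest heart muscle markers.

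Of the natriuretic peptide receptors, Npr1 was lower in 5/6 Nx-HPi-Lp than in Sham, and Npr3 was higher in 5/6 Nx-LPi-Lp. Npr1 (chr3:90450591-90465866, minus strand) was listed at 94.4, 81.3, 65.2 and 98.1 FPKM in Sham and at 63.2, 33.6, 57.2 and 40.8 FPKM in 5/6 Nx-HPi-Lp. It was at 56.3, 76.4, 76.4 and 85.4 FPKM in 5/6 Nx-HPi-Hp and at 43.8, 58.8, 72.1 and 72.4 FPKM in 5/6 Nx-LPi-Lp. The highest 5/6 Nx-HPi-Lp library lay just under the lowest Sham library, and the other diet groups overlapped both. Npr1 was 1.77-fold lower than in Sham (-0.83 ± 0.22, adjusted p = 0.0120). Differences from 5/6 Nx-HPi-Hp (-0.60 ± 0.24, adjusted p = 0.121) and 5/6 Nx-LPi-Lp (-0.35 ± 0.24, adjusted p = 0.330) did not pass.

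Npr3 (chr15:11839896-11907287, minus strand) encodes the clearance receptor. Its levels were 1.23, 1.5002, 1.96 and 1.35 FPKM in Sham and 2.05, 1.70, 2.12 and 1.31 FPKM in 5/6 Nx-HPi-Lp. They were 2.76, 2.16, 1.59 and 1.46 FPKM in 5/6 Nx-HPi-Hp and 6.57, 4.05, 3.00 and 2.06 FPKM in 5/6 Nx-LPi-Lp. The 5/6 Nx-LPi-Lp libraries were all above Sham, but the lowest overlapped the other 5/6 Nx groups. Npr3 was 2.62-fold higher in 5/6 Nx-LPi-Lp than in Sham (1.39 ± 0.31, adjusted p = 0.00998). It was 2.17-fold lower in 5/6 Nx-HPi-Lp than in 5/6 Nx-LPi-Lp (-1.12 ± 0.32, adjusted p = 0.0379), a call lost when any 1 library other than 5/6 Nx-LPi-Lp replicate 4 was left out (adjusted p 0.0524 to 0.105). Without 5/6 Nx-LPi-Lp replicate 1 this difference was -0.78. Replicate 1 also had the highest brown adipocyte marker sum, 4379 CPM. This sum was 302 to 608 CPM in Sham and 1075 to 4379 CPM in 5/6 Nx-LPi-Lp, where 3 of its 4 markers were higher than in Sham, and its part in the Npr3 levels was not tested. Against Sham (0.23 ± 0.20, adjusted p = 0.380) and 5/6 Nx-HPi-Hp (-0.15 ± 0.24, adjusted p = 0.717), Npr3 in 5/6 Nx-HPi-Lp did not pass.

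After 5/6 Nx with the other diets, 3 of the 9 genes were called against Sham in each group, beside 4 in 5/6 Nx-HPi-Lp. The share of all genes called was also smaller. These comparisons use the same 4 Sham libraries as the one above. In 5/6 Nx-HPi-Hp 3 of the 9 genes were DEGs, beside 12.2% of all genes (9.41% higher, 2.75% lower). The split over all genes was 1495 higher and 437 lower, or 972 and 892 with libraries scaled by total counts. Agtr1a was 2.22-fold higher (1.15 ± 0.30, adjusted p = 0.0199), Ednrb 3.00-fold higher (1.58 ± 0.28, adjusted p = 0.00948) and Adra1d 2.40-fold lower (-1.26 ± 0.41, adjusted p = 0.0391). The Adra1d call was lost when any 1 library other than 5/6 Nx-HPi-Hp replicate 4 was left out, with adjusted p up to 0.1003 or, without replicate 3, a change under 2-fold (-0.98). The Agtr1a call was lost without Sham replicate 2 (adjusted p = 0.0540) or 3 (adjusted p = 0.0570). The Ednrb call held in every such fit, and Ednra was at -0.09 ± 0.24 (adjusted p = 0.799).

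In 5/6 Nx-LPi-Lp 3 of the 9 genes were DEGs, all higher than in Sham, beside 10.9% of all genes (8.79% higher, 2.08% lower). The split over all genes was 1413 higher and 335 lower, or 1048 and 842 with scaling by total counts. Besides Npr3, these were Agtr1a, 2.60-fold higher (1.38 ± 0.33, adjusted p = 0.0132), and Ednrb, 2.76-fold higher (1.46 ± 0.35, adjusted p = 0.0123), with the lowest Ednrb library inside the Sham range. Without 5/6 Nx-LPi-Lp replicate 2 the Agtr1a change was 0.97, under 2-fold. Adra1d was 1.93-fold lower (-0.95 ± 0.25, adjusted p = 0.0190), and both its size and its test depended on the setting. It was a lower DEG with total-count scaling (-1.18), no count filter (-1.01), a replicate block (-1.003) and limma on log2(FPKM + 0.1) (-1.02), and without Sham replicate 2 (-1.05) or 5/6 Nx-LPi-Lp replicate 3 (-1.06) or 4 (-1.16). It did not pass with all 16 libraries in 1 fit (adjusted p = 0.105), without Sham replicate 4 (adjusted p = 0.0518) or without 5/6 Nx-LPi-Lp replicate 1 (adjusted p = 0.0502). Adra1b was at 0.32 ± 0.40 (adjusted p = 0.581), or at -0.17 without replicate 2. Edn1 was at -0.37 ± 0.19 (adjusted p = 0.156) in 5/6 Nx-HPi-Hp and at -0.20 ± 0.19 (adjusted p = 0.445) in 5/6 Nx-LPi-Lp.

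In 5/6 Nx-HPi-Hp against 5/6 Nx-LPi-Lp, edgeR called 0 of the 9 genes and 0 of all 15850 genes (0%). At an unadjusted p under 0.05 there were 1420 genes, among them Npr3 (-0.99 ± 0.34, adjusted p = 0.534). DESeq2 called 79 of 30449 genes, and DESeq2 and limma each called 0 of the 9.

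The balance between receptors of a pair was compared as a ratio of FPKM, as a description without a test. The Ednrb to Ednra ratio was 0.547 ± 0.172 (SD, n = 4) in Sham and 1.71 ± 0.429 in 5/6 Nx-HPi-Lp, 1.86 ± 0.705 in 5/6 Nx-HPi-Hp and 1.48 ± 0.548 in 5/6 Nx-LPi-Lp. All 4 Sham libraries had more Ednra than Ednrb (0.347 to 0.766), and all 12 libraries after 5/6 Nx had more Ednrb (1.06 to 2.63). The Adra1d to Adra1b ratio was 26.5 ± 3.85 in Sham and 5.74 ± 2.16 in 5/6 Nx-HPi-Lp, with 14.9 ± 8.26 in 5/6 Nx-LPi-Lp and 10.8 ± 3.58 in 5/6 Nx-HPi-Hp. Npr3 stayed far below Npr1 throughout. Their ratio was 0.0188 ± 0.00785 in Sham, 0.0381 ± 0.00870 in 5/6 Nx-HPi-Lp, 0.0288 ± 0.0142 in 5/6 Nx-HPi-Hp and 0.0723 ± 0.0546 in 5/6 Nx-LPi-Lp.

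**Figure D3:**
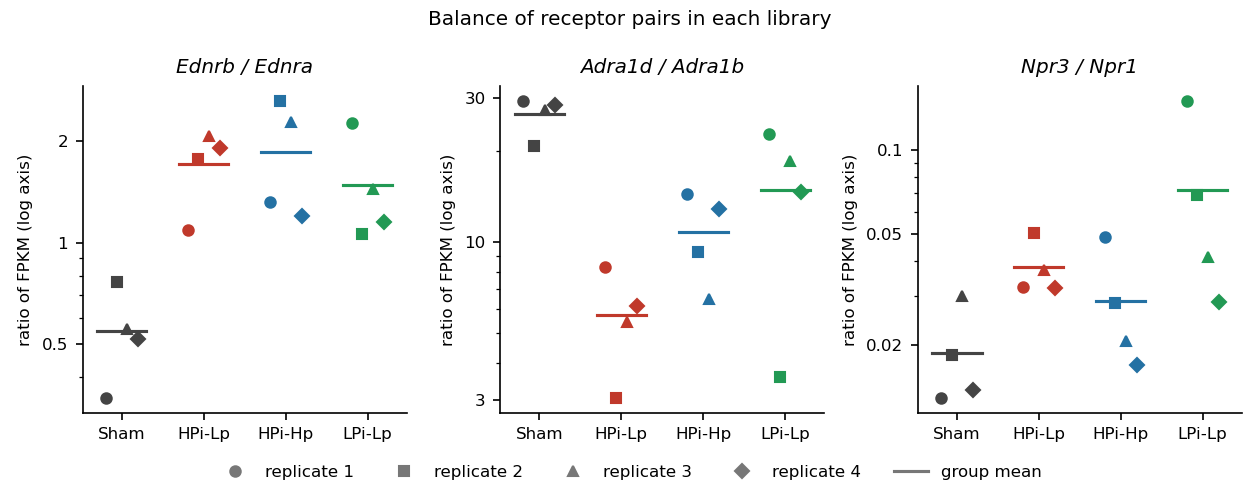
Ratio of FPKM (log axis) for 3 receptor pairs in each library, with 1 symbol per replicate and a bar at the group mean. The Ednrb to Ednra ratio is below 1 in the 4 Sham libraries and above 1 in all others, and the 4 Sham libraries have an Adra1d to Adra1b ratio between 20.9 and 29.3.

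The levels were also set beside the summed markers of cell types in the same libraries. These correlations of log2(CPM + 1) are descriptions over 16 libraries that fall into 4 groups and share their depth and tissue makeup. Adra1d followed the smooth muscle markers (r = 0.94) and Npr1 did so less closely (r = 0.83). Ednrb and Ednra ran opposite to them (r = -0.94 and -0.78). Ednrb and Ednra followed the macrophage sum (r = 0.87 and 0.85), and Ednra also followed the fibroblast sum (r = 0.81). Ednrb also reached r = 0.79 with the adipocyte and 0.75 with the mast cell sum. The adipocyte sum was 462 to 1183 CPM in Sham and 3183 to 5573 in 5/6 Nx-HPi-Lp. It was 1030 to 6877 in 5/6 Nx-HPi-Hp, which overlapped Sham, and 2523 to 7024 in 5/6 Nx-LPi-Lp. Against Sham, 5 of its 6 markers were DEGs and higher in 5/6 Nx-HPi-Lp, and all 6 were in 5/6 Nx-HPi-Hp and in 5/6 Nx-LPi-Lp. Markers of neighbouring organs moved with both receptors as well, lung epithelium with r = 0.80 for Ednra and 0.76 for Ednrb and kidney tubule with r = 0.70 and 0.60. The lung epithelium sum was 0.390 to 1.18 CPM in Sham, 5.59 to 70.3 in 5/6 Nx-HPi-Lp, highest in replicate 2 as for both receptors, 0.379 to 2.18 in 5/6 Nx-HPi-Hp and 0.327 to 1.81 in 5/6 Nx-LPi-Lp. Of its 4 markers 1 was tested, and it was a DEG and higher against each of the other 3 groups. The kidney tubule sum was 2.30 to 5.26 CPM in Sham, 9.43 to 27.4 in 5/6 Nx-HPi-Lp, 1.64 to 7.52 in 5/6 Nx-HPi-Hp and 3.42 to 6.06 in 5/6 Nx-LPi-Lp. Of its 6 markers 3 were tested against Sham, 1 higher and 1 lower as DEGs, and Slc34a1 was at 0 in all 16 libraries. All 6 macrophage markers were DEGs and higher in 5/6 Nx-HPi-Lp against each of the other 3 groups. Their sum was 183 to 283 CPM in Sham, 631 to 2304 in 5/6 Nx-HPi-Lp, 269 to 519 in 5/6 Nx-HPi-Hp and 181 to 320 in 5/6 Nx-LPi-Lp, and the last 2 ranges overlapped Sham. The fibroblast sum was 1716 to 2637 CPM in Sham and 2873 to 12748 in 5/6 Nx-HPi-Lp, with 3 of 6 markers higher than in Sham. It was 1067.5 to 2650 CPM in 5/6 Nx-HPi-Hp and 1116 to 1513 in 5/6 Nx-LPi-Lp. Against each of these, 5 of the 6 markers were DEGs and higher in 5/6 Nx-HPi-Lp. Agtr1a followed both the neuron and the Schwann cell sums (r = 0.75 each). The Schwann cell sum was 26.1 to 34.3 CPM in Sham and 59.3 to 539 in 5/6 Nx-HPi-Lp, and all 5 of its markers were higher. It was 72.6 to 156 CPM in 5/6 Nx-HPi-Hp and 50.6 to 105 in 5/6 Nx-LPi-Lp, both also above Sham. Against Sham, 5 and 4 of its 5 markers were DEGs and higher in these 2 groups. Edn1 (r = -0.09) and Ace (r = 0.10) showed little relation to the endothelial sum. Adra1b reached r = 0.62 with the skeletal muscle sum, 0.60 with the smooth muscle sum and 0.59 with the heart muscle sum, and Npr3 r = 0.66 with the brown adipocyte sum. The part of any of these cell types in the levels was not tested.

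**Figure D4:**
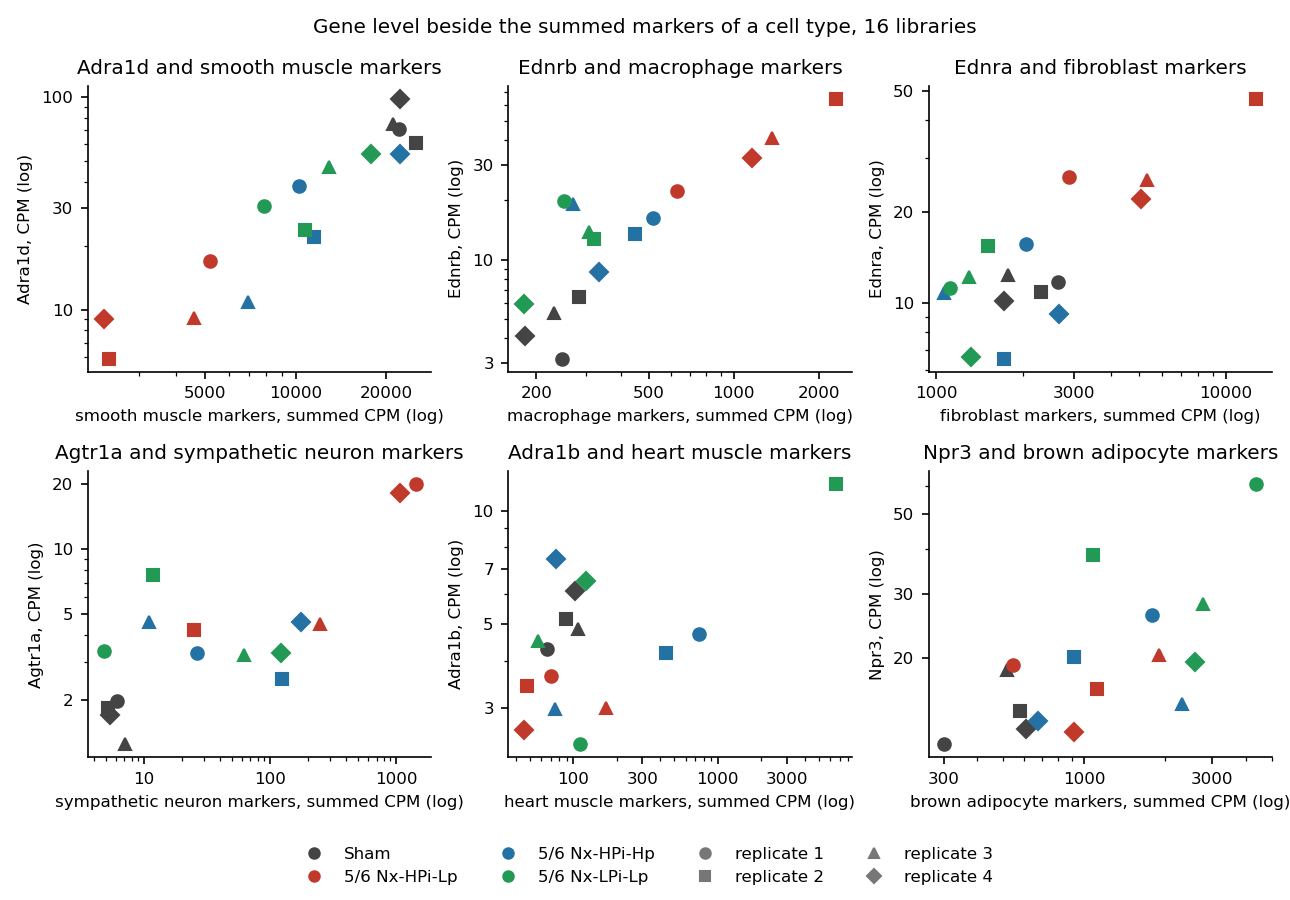
CPM of 6 of the genes against the summed CPM of a cell type's markers in the 16 libraries (both axes log), coloured by group, with 1 symbol per replicate number. Adra1d falls with the smooth muscle sum, which is 2294 to 5206 CPM in 5/6 Nx-HPi-Lp, and single libraries stand apart for Agtr1a, Adra1b and Npr3.

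Among the 9 genes, Ednrb and Adra1d moved most closely, in opposite directions (r = -0.93 over the libraries, -0.69 within groups). Ednra and Ednrb moved together (r = 0.75, 0.60 within groups), as did Adra1d and Npr1 (r = 0.70, 0.39 within groups). Over 15035 genes, the profiles most like each gene over the 16 libraries were also listed. Agtr1a was closest to Zfp462 (r = 0.97) and Ank3 (0.95). Ednrb was closest to Lyn, a kinase of blood cells, to Lamb1 and to Xpnpep1 (0.97 each), and Ednra to Man1a (0.97), Cbfb (0.95) and Papd4 (0.94). Adra1d was closest to Atp1b2 and Clstn1 (0.97 each) and Npr1 to Inpp4a (0.94), Mical1 and Mob2 (0.93 each). Adra1b had the profile of Cryab (0.90), Tmem38a and Hrc (0.87 each), which striated muscle expresses at high levels. Npr3 was closest to Tmem70, Hsdl2 and Uqcc1 (0.87 each), Ace to Clu (0.87), Rpl27-ps3 (0.86) and Plxdc2 (0.84), and Edn1 to Dcps (0.86), Brf2 and Pex26 (0.83 each).

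The other genes of the 4 systems moved in both directions against Sham. Of 13 other angiotensin genes, 9 were tested in 5/6 Nx-HPi-Lp against Sham, with a median log2 fold change of 0.16. Of these, 3 were DEGs and higher and 1 lower, beside 15% and 7.18% of all genes. Agt, the precursor of angiotensin, was at 2.79 ± 1.21 FPKM against 0.245 ± 0.145 in Sham (3.47 ± 0.56 SE, adjusted p = 0.000952), the Sham level resting on 3 to 19 counts, and it was also higher than in 5/6 Nx-LPi-Lp (2.78 ± 0.50, adjusted p = 0.00672). Cma1, a mast cell protease that can also form angiotensin II, was at 40.2 ± 5.08 against 2.52 ± 1.89 FPKM (3.98 ± 0.50, adjusted p = 0.000241). It is also 1 of 5 mast cell markers, of which 4 were higher, with sums of 19.6 to 43.8 CPM in Sham and 155 to 176 in 5/6 Nx-HPi-Lp. Mme, which degrades vasoactive peptides, was higher with overlapping groups (1.52 ± 0.46, adjusted p = 0.0225). Lnpep, an aminopeptidase that binds angiotensin IV, fell from 11.1 ± 0.608 to 5.35 ± 0.362 FPKM (-1.09 ± 0.09, adjusted p = 4.21e-05). Ren1, which encodes renin and is named for its role after its value was seen, was at 0.94 (adjusted p = 0.179).

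Of 14 other adrenergic genes, all tested, 3 were DEGs and higher and 1 lower, with a median of 0.60. Over all genes 15% were higher and 7.18% lower, so these shares were near the background. Slc6a2, the noradrenaline transporter and 1 of the neuron markers, was at 0.723 to 35.2 FPKM against 0.0608 to 0.222 in Sham (7.20 ± 1.18, adjusted p = 0.00107). The third α1 receptor, Adra1a, was higher (1.35 ± 0.575 against 0.502 ± 0.204 FPKM, 1.401 ± 0.37, adjusted p = 0.0119), opposite in direction to Adra1b and Adra1d. Adra2a, an α2 receptor, was lower (3.41 ± 0.653 against 7.18 ± 1.51 FPKM, -1.11 ± 0.19, adjusted p = 0.00130). Against 5/6 Nx-HPi-Hp the DEG of this list was Adrb3, the adipocyte β3 receptor, lower with overlapping groups (-2.05 ± 0.57, adjusted p = 0.0415), while 0 of 6 adipocyte markers were called, with sums of 3183 to 5573 CPM in 5/6 Nx-HPi-Lp and 1030 to 6877 CPM in 5/6 Nx-HPi-Hp. Against 5/6 Nx-LPi-Lp the β1 receptor Adrb1 was lower (-1.38 ± 0.38, adjusted p = 0.0337).

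In the natriuretic peptide list, 3 of 6 other genes were tested. Npr2, the receptor for C-type natriuretic peptide, was lower in 5/6 Nx-HPi-Lp (31.9 ± 6.68 FPKM) than in Sham (47.1 ± 4.15 FPKM, -0.59 ± 0.15, adjusted p = 0.0114) and than in 5/6 Nx-HPi-Hp (69.6 ± 18.8 FPKM, -1.12 ± 0.23, adjusted p = 0.0155). The contractile chain list was mostly lower. It mixes genes that promote contraction with genes that dampen or oppose it, such as Rgs2 and Kcnmb1. All 23 of its genes were tested against Sham, with a median of -1.35. Of these, 13 were DEGs and lower and 1 higher, beside 7.18% and 15% of all genes. On adjusted p alone 19 were lower and 2 higher, beside 20.2% and 22.7% of all genes. Among them Kcnmb1, a subunit of the calcium-activated potassium channel, fell from 53.7 ± 5.28 to 6.26 ± 2.66 FPKM (-3.12 ± 0.28, adjusted p = 4.57e-05). Ppp1r14a, which inhibits myosin phosphatase, fell from 386 ± 36.5 to 54.5 ± 21.3 FPKM (-2.85 ± 0.26, adjusted p = 5.46e-05), and Mylk, myosin light chain kinase, from 90.8 ± 6.53 to 16.3 ± 6.77 FPKM (-2.51 ± 0.28, adjusted p = 0.000126). Rgs2, which dampens Gq signalling, rose from 7.30 ± 1.24 to 20.05 ± 8.76 FPKM (1.43 ± 0.27, adjusted p = 0.00240). Fewer genes of the chain were DEGs against the other diets. Against 5/6 Nx-HPi-Hp 1 of the 23 was a lower DEG, near the 3.11% of all genes, and 19 did not pass on adjusted p. Against 5/6 Nx-LPi-Lp 4 of the 23 were lower DEGs, beside 3.98% of all genes, and 14 did not pass. Ppp1r14a was lower than in 5/6 Nx-HPi-Hp (-2.45 ± 0.34, adjusted p = 0.00409) and 5/6 Nx-LPi-Lp (-2.12 ± 0.29, adjusted p = 0.00263). Many of these genes are abundant in smooth muscle, whose 8 markers had a median of -2.55 against Sham, and the part of that in the list was not tested. In 5/6 Nx-LPi-Lp and 5/6 Nx-HPi-Hp against the same Sham libraries, 8 and 10 genes of the chain were DEGs and lower, beside 2.08% and 2.75% of all genes, and 6 and 5 of the other adrenergic genes were DEGs and higher, beside 8.79% and 9.41%.

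**Figure D5:**
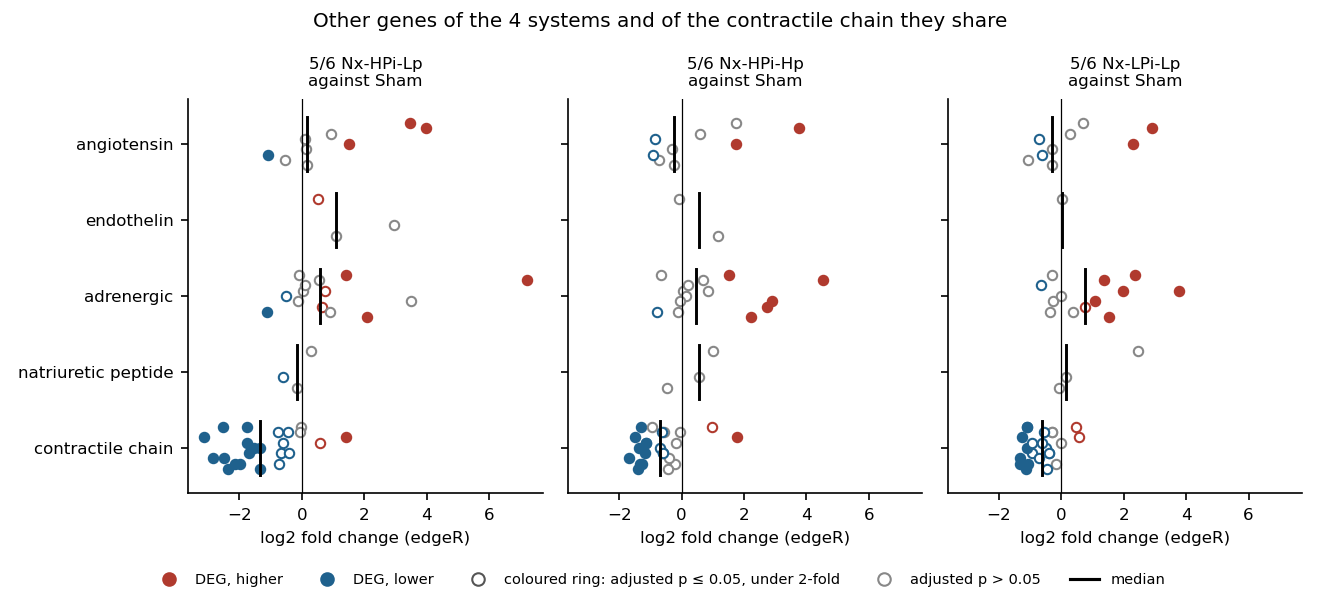
Log2 fold change against Sham of the other genes of the 4 systems and of the contractile chain list, 1 point per gene tested, with a bar at the list's median. Filled points are DEGs. In 5/6 Nx-HPi-Lp 13 contractile chain genes are filled and lower, and the point at 7.20 is Slc6a2.

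Antisense transcripts on the opposite strand share 35 to 559 exon bases with Ace, Ednra, Edn1, Adra1d, Npr1 and Npr3. They had 0 to 71 counts per library, and whether counting used strand is not given in the sources used here.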

How the data were processed

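Poly-A libraries from whole aortas were sequenced and aligned to mm10, and the authors counted reads per gene with featureCounts 1.5.0-p3. The deposited tables hold raw counts and FPKM values. The authors scaled the deposited FPKM between libraries in proportion to DESeq2 size factors, as the values show. Mice were grouped by their labels. Counts were tested with edgeR 4.0.16 (R 4.3.3): low-count filter, TMM scaling, quasi-likelihood F test, Benjamini-Hochberg adjustment over all genes tested, and 8 libraries per comparison, 6 comparisons in all. SE was the log2 fold change divided by the root of F. The design followed the study's DEG thresholds. In simulated data with 200 changed genes for 5/6 Nx-HPi-Lp against Sham, edgeR recovered 98.0% of them among 17004 genes tested. Recovery in the measured libraries was not tested. Alternatives were DESeq2 1.42.0, limma 3.58.1 on log2(FPKM + 1) and log2(FPKM + 0.1), other scalings and filters, 1 fit over 16 libraries, a replicate block and leaving out each library. The 9 genes and all gene and marker lists were chosen with earlier results of these data known. From each list, up to 3 highest and 3 lowest DEGs of each comparison of 5/6 Nx-HPi-Lp with a group mean of at least 50 counts were named; a few genes of these lists and of the most alike profiles are not reported here. Ece1, Npr2 against Sham and Ren1 were named after their values were seen. RefSeq windows were matched by symbol for 7 of the 9 genes, not for Agtr1a and Adra1d. Counts limit precision most for Agtr1a and Adra1b. Each library is 1 mouse.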

Additional observations from a re-analysis of the deposited data

Results flagged for a closer look

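Agtr1a in 5/6 Nx-LPi-Lp replicate 2 was at 2.70 FPKM, against 1.16 to 1.24 FPKM in the other 3 libraries of its group. Its distance to the nearest library was 0.952 of the group's range, above Dixon's critical value for 4 samples. It was the 1 such library among 36 gene-and-group sets examined, and chance would mark about 1 in 20. The same library had the highest heart muscle (6589 CPM) and skeletal muscle (391 CPM) marker sums of the 16, and the part of those in the value was not tested.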

How the results depend on the processing

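Of the alternative counts of called genes, 107 stayed within 1.5 times the reported count and 10 did not. In 5/6 Nx-HPi-Lp against Sham 7 genes passed with no fold-change threshold. Against 5/6 Nx-HPi-Hp the count was 4 with DESeq2, with no count filter and with all 16 libraries in 1 fit, where Agtr1a (adjusted p 0.0188, 0.0441 and 0.0212) and Adra1d (0.00430, 0.0127 and 0.0101) joined. With a replicate block it was 0 (Ednra adjusted p = 0.0738, Ednrb 0.0655). Same-numbered mice did not deviate together throughout. The lowest correlation per comparison was -0.296 to -0.0650. The highest was 0.0019 to 0.565, the last in 5/6 Nx-HPi-Hp against 5/6 Nx-LPi-Lp. Of the 4 libraries of the first group, 0 to 2 correlated best with their own number. By the labels these mice share only a number. The block gave 4, 4, 2, 4 and 0 genes in the other comparisons. In 5/6 Nx-LPi-Lp against Sham limma on log2(FPKM + 1), a scale that shrinks low genes, gave 0. Leaving out 1 library gave 4 to 4 genes in 5/6 Nx-HPi-Lp against Sham, 1 to 3 against 5/6 Nx-HPi-Hp (1 without 5/6 Nx-HPi-Hp replicate 2), 2 to 4 against 5/6 Nx-LPi-Lp (2 without 5/6 Nx-LPi-Lp replicate 3), 1 to 3 in 5/6 Nx-HPi-Hp against Sham (1 without Sham replicate 2 or 3) and 2 to 4 in 5/6 Nx-LPi-Lp against Sham. The cause was not tested. With both neuron-rich 5/6 Nx-HPi-Lp libraries left out, a choice made after seeing the data, the counts were 4, 2 and 3.

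Of the alternative values of single genes, 967 kept direction and call, 32 lost a call, 24 gained one and 30 changed sign, each of these last for a gene that was not called. Without the neuron-rich libraries Ace was at 0.025 against 5/6 Nx-HPi-Hp and 0.091 against 5/6 Nx-LPi-Lp, and Agtr1a at -0.029 against 5/6 Nx-LPi-Lp. Ednra in 5/6 Nx-LPi-Lp against Sham was at -0.23 with total-count scaling, -0.039 with no count filter, -0.030 with the block, and -0.018 and -0.043 with limma and pseudocounts of 1 and 0.1. Leaving out 1 library gave, against 5/6 Nx-HPi-Hp, -0.25 to 0.018 for Ace and -0.27 to 0.053 for Npr3, and against 5/6 Nx-LPi-Lp -0.17 to 0.00057 for Ace. It gave -0.35 to 0.080 for Ednra and -0.37 to 0.11 for Adra1b in 5/6 Nx-HPi-Hp against Sham, and -0.17 to 0.21 and -0.17 to 0.57 in 5/6 Nx-LPi-Lp against Sham. In 5/6 Nx-HPi-Hp against 5/6 Nx-LPi-Lp it gave -0.35 to 0.17 for Agtr1a, -0.093 to 0.15 for Ace, -0.35 to 0.069 for Ednra, -0.12 to 0.41 for Ednrb, -0.33 to 0.014 for Edn1 and -0.68 to 0.11 for Adra1b.

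Total-count scaling moved the median of all genes against Sham to -0.14 in 5/6 Nx-HPi-Lp, -0.19 in 5/6 Nx-HPi-Hp and -0.22 in 5/6 Nx-LPi-Lp, and called members kept their direction. Agtr1a against Sham was also lost with all 16 libraries in 1 fit, in 5/6 Nx-HPi-Hp (adjusted p = 0.0846) and 5/6 Nx-LPi-Lp (0.0622), and under the block in 5/6 Nx-HPi-Hp (0.0646), where total-count scaling put it under 2-fold (0.95). Agtr1a against 5/6 Nx-LPi-Lp was called by DESeq2 (0.0385) and with all 16 libraries (0.0402). Counts of 29 to 311 limit Agtr1a.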

Other observations

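The hormones that activate these receptors were mostly near the floor in aortic RNA. Nppb and Nppc, which encode B-type and C-type natriuretic peptide, had 0 to 120 and 0 to 52 counts per library. Nppa, which encodes atrial natriuretic peptide and is also 1 of the heart muscle markers, was at 0 in 10 of the 16 libraries and reached 277 counts in 1 5/6 Nx-HPi-Hp library. The endothelin genes Edn2 and Edn3 had 0 to 16 and 0 to 61 counts, far fewer than Edn1 with 188 to 1094. Counterparts of Ace and Agtr1a in the angiotensin system were also thin, with 0 to 5 counts for Agtr2 and 0 to 15 for Mas1. At these counts differences between the groups were not detectable for Agtr2, Mas1 and Edn2.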
